A study of Mus musculus with 12 samples.

Results

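The genes described here are 10 members of the tumor necrosis factor (TNF) superfamily and the TNF receptor superfamily, taken by symbol from the 52636 genes of the count table: the ligands Tnf, Tnfsf14, Tnfsf11 and Tnfsf12, and the receptors Tnfrsf1a, Tnfrsf1b, Tnfrsf11a, Tnfrsf11b, Tnfrsf12a and Ltbr. The members were chosen by name, with earlier results of these data known. All 10 passed the filter on low counts and were among the 17993 genes tested. RNA-sequencing was performed on back skin of BALB/c mice in 4 groups of 3 libraries. Control mice were injected intradermally with vehicle, and LL37 mice with the human cathelicidin peptide LL37, which produces a rosacea-like dermatitis. By the study's methods the mice were 8 weeks old and received 40 μl of peptide or vehicle at each injection, 2 times a day for 2 days. Mice of the control + RAPA and LL37 + RAPA groups also received rapamycin (RAPA), an inhibitor of the mTORC1 kinase complex, which the methods give as an intraperitoneal dose of 4 mg/kg per day. No genetic change was made in any group, and the model stands on repeated injection over days rather than on a chronic lesion.

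TNF superfamily ligands are mostly membrane-bound trimers, some of which are cut from the cell surface, and they cluster their receptors to recruit TRAF adaptors or death-domain proteins and activate NF-κB, MAP kinases or caspases. Tnf is made early by macrophages, mast cells and other leukocytes in inflamed skin and acts through Tnfrsf1a, which most cells carry, and Tnfrsf1b, which is found chiefly on leukocytes and endothelium. Tnfsf14 (LIGHT) binds Ltbr, Tnfsf11 (RANKL) binds Tnfrsf11a (RANK) and the secreted decoy Tnfrsf11b (osteoprotegerin), and Tnfsf12 (TWEAK) binds Tnfrsf12a (Fn14).

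LL37 injection raised 3 of the 4 ligands and 1 of the 6 receptors by the rule used for differentially expressed genes (DEGs), an adjusted p below 0.05 with an absolute log2 fold change above 1. These were Tnf, Tnfsf14, Tnfsf11 and Tnfrsf1b, and 8.73% of all genes tested were called higher by this rule. In LL37 vs LL37 + RAPA the rule was met by Tnf and Tnfrsf1b, which were higher in LL37 skin, and in LL37 + RAPA vs control it was met by Tnfsf14. The shares of all genes called higher in these comparisons were 4.33% and 2.15%. In skin given both agents, Tnf stood at 2.88 ± 0.73 CPM (counts scaled to the library size by the trimmed mean of M-values, TMM; SD, n = 3) against 2.99 ± 2.39 in control skin, and Tnfsf14 stood at 6.26 ± 2.73 CPM against 0.37 ± 0.24. The other receptors were not called. In LL37 vs control Tnfrsf1a, Tnfrsf11a, Ltbr and Tnfrsf11b passed at an adjusted p below 0.05, with log2 fold changes of 0.53 to 0.91. Tnfrsf12a did not pass the test. The count of 1 receptor against 3 ligands thus rests on the fold limit.

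The promoters of the called genes are shown first, since the genes moved in the same direction in LL37 vs control. RefSeq (GRCm38.p6) gave a promoter for 8 of the 10 genes and none for Tnfsf12 and Tnfrsf11b. The 250 bases before the transcript start of the 4 called genes read as follows, 5′ to 3′ on the strand of the gene, which is the minus strand for all 4, and capitals mark matches to the motifs named after the sequences.
Tnf, chr17:35202008-35202257: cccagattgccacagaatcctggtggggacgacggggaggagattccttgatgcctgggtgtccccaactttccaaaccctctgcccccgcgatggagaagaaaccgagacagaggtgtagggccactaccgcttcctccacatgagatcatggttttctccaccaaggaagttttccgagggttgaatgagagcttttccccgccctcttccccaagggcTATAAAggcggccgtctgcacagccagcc
Tnfsf14, chr17:57194182-57194431: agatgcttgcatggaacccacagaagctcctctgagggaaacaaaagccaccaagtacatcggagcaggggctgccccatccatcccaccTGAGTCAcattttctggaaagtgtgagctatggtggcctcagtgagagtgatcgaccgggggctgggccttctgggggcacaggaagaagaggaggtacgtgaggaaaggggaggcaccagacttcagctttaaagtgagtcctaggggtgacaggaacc
Tnfsf11, chr14:78308044-78308293: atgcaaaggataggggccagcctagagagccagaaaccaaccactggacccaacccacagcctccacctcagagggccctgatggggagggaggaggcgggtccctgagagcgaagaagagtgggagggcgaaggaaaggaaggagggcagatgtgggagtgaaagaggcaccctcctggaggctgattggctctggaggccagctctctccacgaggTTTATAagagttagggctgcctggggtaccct
Tnfrsf1b, chr4:145246871-145247120: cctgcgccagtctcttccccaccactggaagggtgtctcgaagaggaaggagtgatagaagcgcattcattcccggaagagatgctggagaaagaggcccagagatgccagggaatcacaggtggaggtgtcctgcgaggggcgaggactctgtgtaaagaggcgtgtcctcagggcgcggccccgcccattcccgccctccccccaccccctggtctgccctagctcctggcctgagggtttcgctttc

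Both strands were searched for the TATA box (TATAAA), the AP-1 site (TGANTCA) and the NF-κB consensus site. The Tnf promoter held TATAAA 29 to 24 bases before the start, and that of Tnfsf11 held it on the opposite strand, read above as TTTATA, 32 to 27 bases before the start. Tnfsf14 held an AP-1 match, TGAGTCA, 160 to 154 bases before the start. None of the 8 promoters held the NF-κB consensus in this window, and that of Tnfrsf1b held none of the 3 motifs. Of 32807 mouse promoters of the same length, 12.4% held the TATA box, 6.75% the AP-1 site and 7.25% the NF-κB consensus on either strand. The matches overlapped no other match, and they describe letters only.

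All 10 are protein-coding genes, and their positions are given on GRCm38. The ligands are Tnf (ENSMUSG00000024401) at chr17:35199381-35202007 on the minus strand, Tnfsf14 (ENSMUSG00000005824) at chr17:57189492-57194177 on the minus strand, Tnfsf11 (ENSMUSG00000022015) at chr14:78277445-78308043 on the minus strand and Tnfsf12 (ENSMUSG00000097328) at chr11:69686250-69695849 on the minus strand. The receptors are Tnfrsf1a (ENSMUSG00000030341) at chr6:125349362-125362484 on the plus strand, Tnfrsf1b (ENSMUSG00000028599) at chr4:145213463-145246870 on the minus strand, Tnfrsf11a (ENSMUSG00000026321) at chr1:105780718-105847981 on the plus strand, Tnfrsf11b (ENSMUSG00000063727) at chr15:54250619-54278484 on the minus strand, Tnfrsf12a (ENSMUSG00000023905) at chr17:23675445-23677468 on the minus strand and Ltbr (ENSMUSG00000030339) at chr6:125306571-125313885 on the minus strand. Tnf and Tnfsf14 lie on the same chromosome as Tnfrsf12a, and Tnfrsf1a and Ltbr are close neighbours on chromosome 6.

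Levels can be set beside each other between genes only per length, and for that FPKM values, CPM divided by the summed exon length in kilobases, were computed from the counts. In control skin Tnfrsf1a had the highest level of the 10, at 67.4 ± 5.85 FPKM (SD, n = 3), followed by Ltbr at 30.6 ± 4.42 and Tnfrsf12a at 27.0 ± 2.18, whose values overlapped within their spread. Tnfrsf1b stood at 7.62 ± 2.5 FPKM, Tnfsf12 at 3.54 ± 1.08, Tnfrsf11a at 2.18 ± 0.23, Tnf at 1.82 ± 1.46 and Tnfrsf11b at 1.65 ± 0.16. Tnfsf14 and Tnfsf11 were lowest, at 0.20 ± 0.13 and 0.023 ± 0.023 FPKM. The means of Tnfrsf11a and Tnfrsf11b thus fell within the spread of Tnf in control skin, and Tnfsf12 was the ligand with the highest mean. In LL37 skin Tnfrsf1a stayed highest at 124 ± 30.4 FPKM and Ltbr followed at 44.3 ± 9.27. Tnfrsf1b, at 35.2 ± 22.8 FPKM, reached the range of Tnfrsf12a at 31.8 ± 0.82. Tnf, at 8.26 ± 4.33 FPKM, and Tnfsf14, at 7.31 ± 6.15, were close to each other in LL37 skin and above the means of Tnfsf12 and Tnfrsf11a, with a spread that reached both.

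Total counts ran from 15734559 to 23271784 per library. In the first principal component, which held 68.3% of the variance over all genes tested, LL37 replicates 1 and 2 were at 133 and 129, while LL37 replicate 3 was at 64.4 and the LL37 + RAPA libraries at 0.53 to 29.8. Keratinocyte markers summed to 31794 CPM or more in every control library, which fits the labelled tissue. Skeletal muscle markers summed to 46132 to 66171 CPM in control skin but 211 to 1288 in skin given LL37 and 4235 to 8707 in LL37 + RAPA skin, and for all 23 that were tested LL37 skin was lower than both. Whether the tissue taken reached the same depth in all groups is not given in the sources used here, and its part in the results was not tested. When the muscle list was taken out before normalization, the same numbers of the 10 genes were called in all 6 comparisons. That step acts on the library sizes and the normalization, so it cannot show whether the tissue taken differed between groups.

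Tnf encodes the founding cytokine of the family. Its level was 1.78, 1.44 and 5.74 CPM in control replicates 1, 2 and 3, and 2.39, 1.09 and 2.36 CPM in control + RAPA skin. LL37 skin had 18.9, 16.2 and 5.51 CPM, and LL37 + RAPA skin had 2.09, 3.03 and 3.52 CPM. LL37 replicates 1 and 2 stood above all other libraries, whereas LL37 replicate 3 fell just under control replicate 3, so the LL37 and control libraries overlapped. The log2 fold change of LL37 vs control was 2.18 (standard error, SE, 0.56, edgeR quasi-likelihood test, adjusted p 0.00831), and without control replicate 3 it was 3.05. LL37 vs LL37 + RAPA gave 2.23 (SE 0.55, adjusted p 0.0151), with no overlap between the libraries. The latter call was lost without LL37 replicate 1 (1.90, adjusted p 0.0621) and without LL37 + RAPA replicate 1 (2.04, adjusted p 0.0652). LL37 + RAPA vs control gave -0.05, with a 95% confidence interval from -1.29 to 1.18, which includes changes past the fold limit in either direction.

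Tnfsf14 encodes LIGHT, a ligand of Ltbr that is made by activated T cells, neutrophils and other myeloid cells. It was close to the limit of detection in control skin, with 10, 2 and 9 counts or 0.54, 0.10 and 0.47 CPM, and in control + RAPA skin, with 6, 4 and 3 counts. LL37 skin had 11.1, 25.9 and 3.53 CPM, and LL37 + RAPA skin 3.46, 8.92 and 6.40 CPM. Every library that received LL37, with or without RAPA, was above every library that did not. The log2 fold change was 5.16 (SE 0.77, adjusted p 0.000331) in LL37 vs control and 4.06 (SE 0.77, adjusted p 0.00421) in LL37 + RAPA vs control. LL37 + RAPA vs control + RAPA, which shares no library with LL37 vs control, gave 4.72 (SE 0.82, adjusted p 0.00215). Without LL37 replicate 2 the change in LL37 vs control was 4.32 (adjusted p 0.0006). LL37 vs LL37 + RAPA gave 1.1 (95% confidence interval -0.16 to 2.35, adjusted p 0.184) with overlapping libraries, with 1.55 (adjusted p 0.0148) without LL37 replicate 3 and 0.22 (adjusted p 0.801) without LL37 replicate 2.

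Tnfsf11 encodes RANKL, which drives osteoclast formation and, in skin, is made by keratinocytes and acts on Langerhans cells. It had 0, 2 and 1 counts in control skin, at or under the limit of 3 counts per library set for detection, and 5, 3 and 0 counts in control + RAPA skin. LL37 skin had 45, 52 and 10 counts, equal to 2.45, 3.19 and 0.47 CPM, and LL37 + RAPA skin had 1, 13 and 14 counts, equal to 0.047, 0.53 and 0.63 CPM. LL37 replicate 3 lay within the range of LL37 + RAPA skin, and the other LL37 libraries lay above it. Measured against the limit of detection, the LL37 mean was at least 12.9-fold higher than control, and the LL37 + RAPA mean at least 2.56-fold higher. LL37 + RAPA vs control missed the threshold (adjusted p 0.176), with LL37 + RAPA replicate 1 inside the range of control skin. Tnfsf11 passed the test in LL37 vs control (adjusted p 0.00326), and in each fit that left out 1 library the adjusted p was 0.0164 or less. In LL37 vs LL37 + RAPA the log2 fold change was 2.28 (SE 0.80, adjusted p 0.0573), which missed the threshold, and without LL37 replicate 3 it was 2.76 (adjusted p 0.00935). DESeq2 placed the same comparison just past the threshold, at 2.33 (adjusted p 0.0474).

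Tnfsf12 encodes TWEAK, a ligand that many tissues express steadily. It had 6.90, 3.64 and 5.53 CPM in control skin and 3.74, 4.64 and 8.81 in control + RAPA skin. The values were 4.84, 5.58 and 9.66 CPM in LL37 skin, and 6.03, 7.41 and 7.08 CPM in LL37 + RAPA skin. The 4 groups overlapped throughout. LL37 vs control gave 0.33 (95% confidence interval -0.44 to 1.1, adjusted p 0.485), and no comparison was called. Of its 1515 exon bases, 731 are shared on the same strand with Tnfsfm13, a read-through gene that joins Tnfsf12 to its neighbour, so the count of Tnfsf12 is uncertain. Tnfsfm13 itself had 17 to 50 counts per library, and its log2 fold change in LL37 vs control was -0.02.

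**Figure D1:**
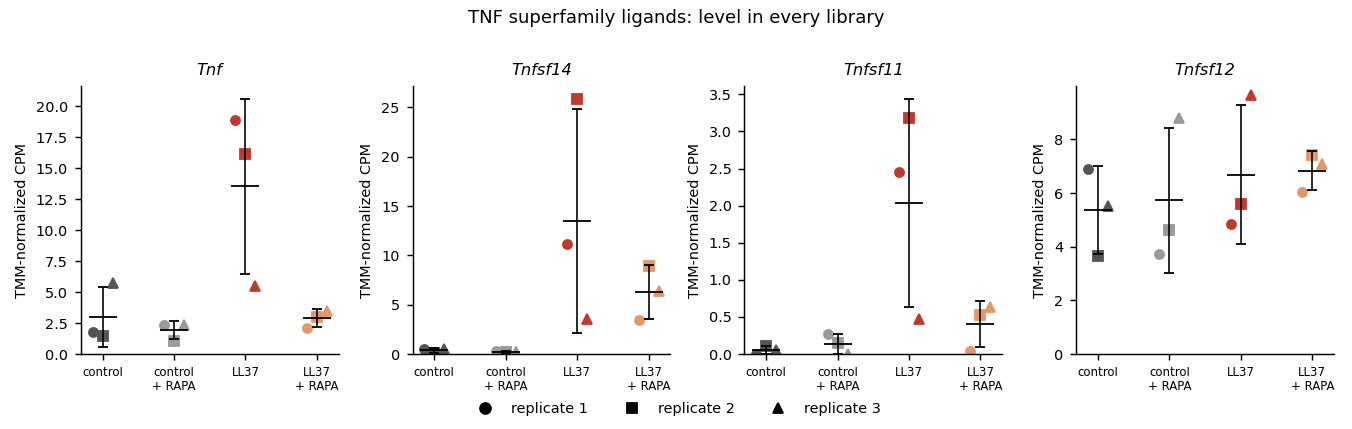
Level of the 4 ligands (vertical axis, TMM-normalized CPM on a linear scale from 0) in the 4 groups, with 1 symbol per library (circle, square and triangle for replicates 1, 2 and 3) and a horizontal line for the mean with an error bar for the SD over 3 libraries. Tnf fell from 13.5 CPM in LL37 skin to 2.88 in LL37 + RAPA skin, Tnfsf14 stayed above control skin in both, and the triangle of LL37 skin is the lowest of its group for Tnf, Tnfsf14 and Tnfsf11.

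Tnfrsf1a, the receptor with a death domain that most cells carry, had 177, 188 and 158 CPM in control skin and 188, 204 and 179 CPM in control + RAPA skin. It had 370, 365 and 231 CPM in LL37 skin and 218, 247 and 246 CPM in LL37 + RAPA skin. All LL37 libraries were above all control libraries, and LL37 replicate 3 lay among the LL37 + RAPA libraries. The log2 fold change in LL37 vs control was 0.88 (SE 0.16, adjusted p 0.00104), an increase of 1.85-fold that did not reach the fold limit. It was 1.1 (adjusted p 7.66e-06) without LL37 replicate 3, which was past the limit. LL37 vs LL37 + RAPA gave 0.44 (SE 0.16, adjusted p 0.0595), and LL37 + RAPA vs control gave 0.44 (adjusted p 0.0901).

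Tnfrsf1b, the second TNF receptor, which lacks a death domain, was the receptor with the largest increase of the 6. It had 36.8, 18.4 and 32.0 CPM in control skin and 20.5, 20.4 and 25.3 CPM in control + RAPA skin. LL37 skin had 229, 117 and 56.9 CPM, and LL37 + RAPA skin had 36.3, 58.7 and 45.3 CPM. The LL37 libraries all exceeded the control libraries but spread over a 4.02-fold range, and LL37 replicate 3 lay under LL37 + RAPA replicate 2. The log2 fold change was 2.21 (SE 0.42, adjusted p 0.00153) in LL37 vs control and 1.58 without LL37 replicate 1. It was 1.52 (SE 0.41, adjusted p 0.0213) in LL37 vs LL37 + RAPA. That call was lost without LL37 replicate 1 (0.90, adjusted p 0.103), without LL37 + RAPA replicate 1 (1.37, adjusted p 0.086) and without LL37 + RAPA replicate 3 (1.5, adjusted p 0.0673). It was also lost when only the 6 libraries compared were fitted (1.51, adjusted p 0.0702). LL37 + RAPA vs control + RAPA gave 1.09 (adjusted p 0.0941), with no overlap between the libraries, and was called in 7 of 22 alternatives. These included the fit of only the groups compared (1.12, adjusted p 0.00244) and DESeq2 (1.09, adjusted p 0.0324). Scaling by library size only and a filter of at least 1 count in total also gave a call (adjusted p 0.0397 for both). The value passed the test as well without LL37 replicate 1 (adjusted p 0.0311) or LL37 replicate 3 (adjusted p 0.0161). Those libraries enter that comparison only through the steps shared by all libraries, namely the filter, the normalization, the estimate of the spread and the adjustment of p.

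Tnfrsf11a encodes RANK, the signalling receptor for Tnfsf11. It had 14.6, 12.2 and 12.3 CPM in control skin and 8.95, 10.6 and 9.50 CPM in control + RAPA skin. LL37 skin had 26.5, 24.3 and 22.7 CPM, and LL37 + RAPA skin had 15.6, 20.8 and 17.9 CPM. The 4 groups did not overlap, in the order LL37, LL37 + RAPA, control and control + RAPA. The log2 fold change was 0.91 (SE 0.14, adjusted p 0.000335) in LL37 vs control and 0.90 (SE 0.14, adjusted p 0.000963) in LL37 + RAPA vs control + RAPA. The difference between these changes, the interaction of LL37 and RAPA, was 0.01 (95% confidence interval -0.42 to 0.43). LL37 vs LL37 + RAPA gave 0.44 (adjusted p 0.0353), and LL37 + RAPA vs control gave 0.47 (adjusted p 0.0374). Neither passed the test in every alternative fit, and with 1 library left out the adjusted p rose to as much as 0.141 and 0.172, without LL37 + RAPA replicate 1 and without LL37 + RAPA replicate 2. Control + RAPA vs control gave -0.43, with an unadjusted p of 0.0093 and an adjusted p of 0.463.

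Tnfrsf11b encodes osteoprotegerin, the secreted decoy that binds Tnfsf11 and keeps it from RANK. Its level was 4.42, 4.36 and 5.16 CPM in control skin and 7.54, 11.7 and 6.04 CPM in control + RAPA skin. It was 9.03, 11.4 and 5.04 CPM in LL37 skin and 7.07, 9.25 and 8.75 CPM in LL37 + RAPA skin. All groups other than control lay in the same range, and LL37 replicate 3 lay within the control range. LL37 vs control gave 0.86 (SE 0.30, adjusted p 0.0369), under the fold limit, and 1.16 (adjusted p 0.0027) without LL37 replicate 3. It missed the threshold when any 1 of the control libraries (adjusted p 0.0589 to 0.0951), LL37 replicate 1 (adjusted p 0.0948) or LL37 replicate 2 (0.63, adjusted p 0.13) was left out, and when only the 6 libraries compared were fitted (adjusted p 0.0696). Control + RAPA vs control gave 0.86 as well, with an adjusted p of 0.489 (unadjusted p 0.0149), and LL37 vs LL37 + RAPA gave 0.02 (95% confidence interval -0.62 to 0.66).

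Tnfrsf12a encodes Fn14, the receptor of Tnfsf12. It had 56.6, 48.1 and 51.9 CPM in control skin and 51.1, 57.9 and 65.0 CPM in control + RAPA skin. LL37 skin had 61.1, 60.2 and 63.3 CPM, and LL37 + RAPA skin had 53.8, 51.9 and 48.8 CPM. The LL37 libraries stood above control and LL37 + RAPA libraries by a small margin, with 0.24 (adjusted p 0.0772) in LL37 vs control and 0.26 (adjusted p 0.0815) in LL37 vs LL37 + RAPA, neither past the threshold. Ltbr, the lymphotoxin beta receptor, had 83.0, 71.0 and 62.3 CPM in control skin and 78.9, 79.3 and 81.7 CPM in control + RAPA skin. LL37 skin had 114, 120 and 79.5 CPM, and LL37 + RAPA skin had 86.7, 101 and 90.8 CPM. LL37 replicate 3 lay under control replicate 1, and the other LL37 libraries lay above all others. Ltbr gave 0.53 (SE 0.15, adjusted p 0.0133) in LL37 vs control and 0.17 (95% confidence interval -0.16 to 0.49, adjusted p 0.439) in LL37 vs LL37 + RAPA. The former missed the threshold without control replicate 3 (0.42, adjusted p 0.061), without LL37 replicate 1 (0.47, adjusted p 0.0538) and when only the 6 libraries compared were fitted (adjusted p 0.0682).

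**Figure D2:**
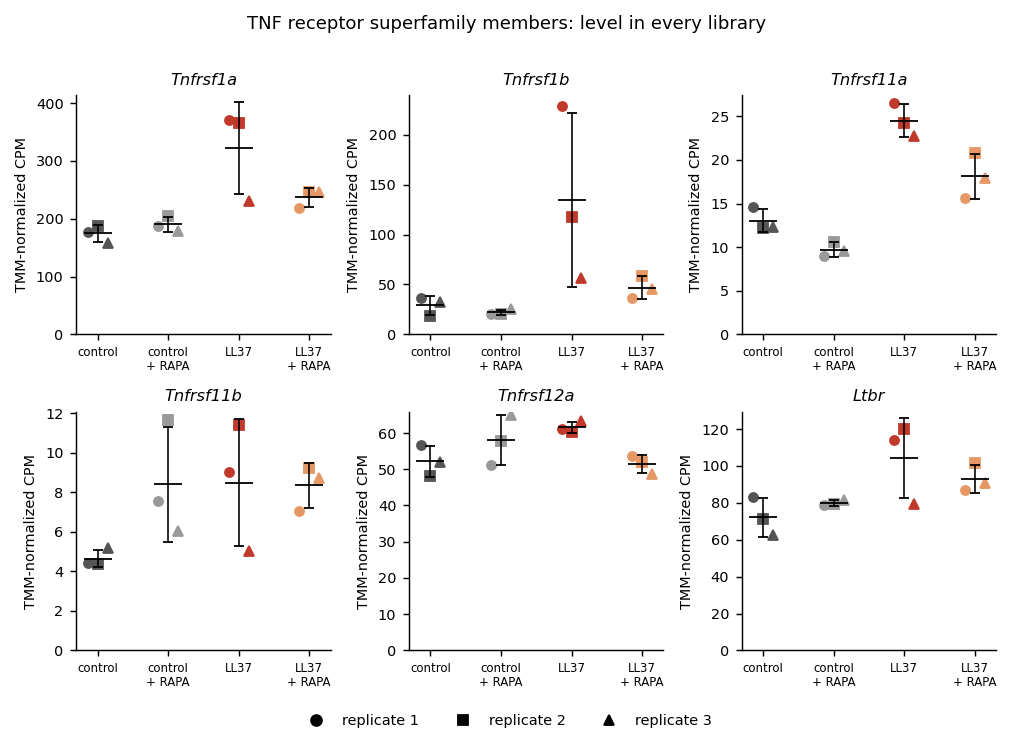
Level of the 6 receptors (vertical axis, TMM-normalized CPM on a linear scale from 0) by group, with 1 symbol per library and a horizontal line for the mean with an error bar for the SD over 3 libraries. Tnfrsf11a separates the 4 groups, Tnfrsf1b spreads from 56.9 to 229 CPM within LL37 skin, and Tnfrsf12a stays between 48.1 and 65.0 CPM throughout.

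Counted over the 10 genes, 4 were called higher and 0 lower in LL37 vs control, where 8.73% of all genes tested were called higher and 10.8% lower. By adjusted p alone, 8 of the 10 were higher, against 21.0% of all genes, and the exceptions were Tnfsf12 and Tnfrsf12a. The 8 include Tnfrsf11b and Ltbr, and the count was 6 to 8 when 1 library was left out. The libraries of LL37 and control skin did not overlap for 6 of the 10, against 23.8% of all genes in that direction. The median log2 fold change of the 10 was 0.90, and that of all genes was close to 0. In LL37 vs LL37 + RAPA 2 of the 10 were called higher, where 4.33% of all genes were higher and 5.80% lower, and 3 were higher by adjusted p alone, against 11.8%. That count of 3 rose to 7 without LL37 replicate 3, and it was 0 if LL37 replicate 1 or LL37 + RAPA replicate 1 was omitted and 1 if LL37 + RAPA replicate 3 was. The median of the 10 was 0.44. Without LL37 replicate 3 the called genes of the 10 numbered 6 against control skin and 4 against LL37 + RAPA skin. The latter count was 0 when LL37 replicate 1 or LL37 + RAPA replicate 1 was left out and 1 when LL37 + RAPA replicate 3 was. Over all genes, the fit with all libraries called 1570 higher against control skin and 779 against LL37 + RAPA skin. Without LL37 replicate 3 these were 1935 and 1093. Against LL37 + RAPA skin they were 447 without LL37 replicate 1, 487 without LL37 + RAPA replicate 1 and 605 without LL37 + RAPA replicate 3. Both comparisons use the LL37 libraries, so their values for a gene are not independent. The 10 genes were chosen with earlier results of these data known, so their counts beside the shares of all genes are no test of the set.

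In LL37 + RAPA vs control 1 of the 10, Tnfsf14, was called higher, where 2.15% of all genes were, and the median of the 10 was 0.46. These 386 genes numbered 179 without LL37 + RAPA replicate 2 and 201 without control replicate 2. In LL37 + RAPA vs control + RAPA the count was 1, again Tnfsf14, where 4.07% of all genes were called higher, and the median was 0.44. Control + RAPA vs control called 0 of the 10 and 0 of all genes by edgeR. At an unadjusted p below 0.05, 2 of the 10 differed, Tnfrsf11a and Tnfrsf11b, against 8.65% of all genes, and DESeq2 called 0 of the 10 and 51 of all genes. The interaction of LL37 and RAPA was called for 0 of the 10, where 2.38% of all genes were called, and DESeq2 also called 0 of the 10. Those 429 genes became 2 without LL37 + RAPA replicate 1, 17 without control + RAPA replicate 3, 23 without control replicate 1 and 1760 without LL37 replicate 3, and in the other fits that left out 1 library they numbered 96 to 373. At an unadjusted p below 0.05, which 22.5% of all genes met, it differed for 2 of the 10, Tnfrsf1a (0.57) and Tnfrsf12a (0.41). For Tnf it was 1.60 (95% confidence interval -0.15 to 3.35, adjusted p 0.264) and for Tnfsf11 3.62 (-0.19 to 7.42), wide intervals that include both 0 and large differences. Without LL37 replicate 3 the interaction was called for Tnfrsf1b (1.49, adjusted p 0.0322) and Tnfrsf11b (1.15, adjusted p 0.0379).

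**Figure D3:**
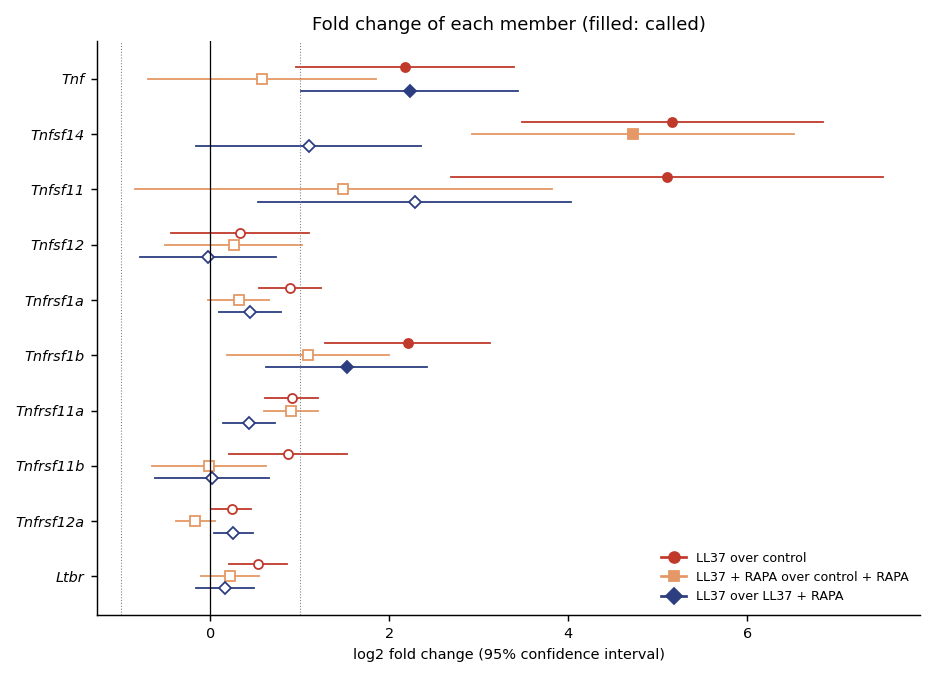
Log2 fold change (horizontal axis, with 95% confidence intervals from edgeR) of each of the 10 genes in LL37 vs control (circles), LL37 + RAPA vs control + RAPA (squares) and LL37 vs LL37 + RAPA (diamonds), with filled symbols for called genes and dotted lines at the fold limit. Tnf and Tnfrsf1b are filled as circles and diamonds, and Tnfsf14 as a circle and a square. The intervals of Tnfsf11 are the widest, and its fitted value against control depends on the fit, since control was at the limit of detection.

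Other measures of the same libraries are set beside the levels here, and no correlation with them was computed. LL37 replicate 3 was the lowest LL37 library for 8 of the 10 genes, all but Tnfsf12 and Tnfrsf12a. Neutrophil markers summed to 21.6 to 83.7 CPM in control skin and 1756, 2444 and 256 CPM in LL37 replicates 1, 2 and 3. They summed to 90.0 to 365 CPM in LL37 + RAPA skin. Of 12 listed 9 were tested, and 7 were called higher and 1 lower in LL37 vs control. Against LL37 + RAPA skin 3 were called higher, while no tested marker had all LL37 libraries above all LL37 + RAPA libraries. Ly6g and Ngp were at the limit of detection in control skin, and their LL37 means were at least 5.94-fold and 5.16-fold that limit. Elane was at the limit in LL37 skin, so these 3 genes add little to the sums. Macrophage and monocyte markers summed to 681 to 1077 CPM in control skin, while LL37 skin had 1662 to 2175 and LL37 + RAPA skin 1632 to 2842. Of these 10 markers, 5 were called higher in LL37 skin against control and 1 against LL37 + RAPA skin. T cell markers summed to 30.8 to 41.6, 35.5 to 42.8 and 25.5 to 29.7 CPM in the same order, B cell markers stayed under 5 CPM, and of these Ms4a1 was at 0 in all control libraries. Mast cell markers summed to 75.4 to 241 CPM in control skin, while LL37 skin had 147 to 397 and LL37 + RAPA skin 139 to 300. Dendritic and Langerhans cell markers summed to 209 to 233, 309 to 362 and 231 to 257 CPM. Of these 10 markers 2 were called higher against control skin, and against LL37 + RAPA skin 1 was, with 3 whose libraries were all higher and 3 all lower in LL37 skin and a median log2 fold change of -0.14. Adipocyte markers summed to 1477 to 2643 CPM in control skin, while LL37 skin had 469 to 969 and LL37 + RAPA skin 2759 to 2985. Of these 8 markers, 6 were called lower in LL37 skin against control and 8 against LL37 + RAPA skin. Fibroblast markers summed to 2719 to 5954 CPM in control, 3943 to 5471 in LL37 and 4516 to 6533 in LL37 + RAPA skin. In the same order, endothelial cell markers summed to 324 to 422, 300 to 441 and 443 to 491 CPM. Keratinocyte markers summed to 31794 to 41069, 35468 to 48807 and 32464 to 34262 CPM. Beside these marker counts, 8.73% of all genes were called higher and 10.8% lower against control skin. Against LL37 + RAPA skin the shares were 4.33% and 5.80%. The part of these cell types in the levels of the 10 genes was not tested. In whole skin, more cells of a type and more RNA per cell cannot be told apart.

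**Figure D4:**
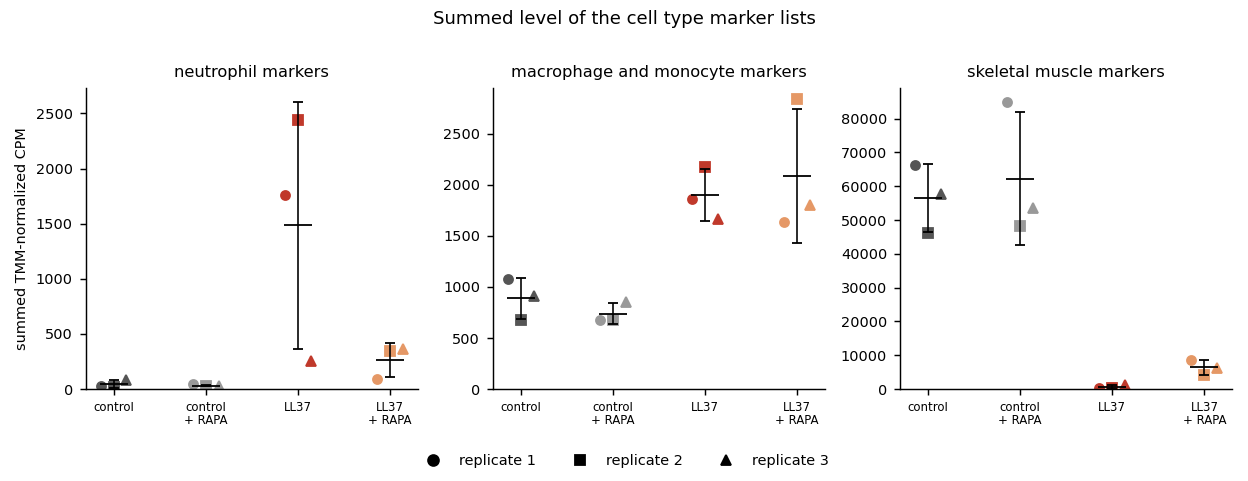
Summed TMM-normalized CPM (vertical axis, linear scale from 0) of the neutrophil, macrophage and monocyte, and skeletal muscle marker lists by group, with 1 symbol per library and a horizontal line for the mean with an error bar for the SD over 3 libraries. Neutrophil markers run from 256 to 2444 CPM within LL37 skin, macrophage and monocyte markers overlap between LL37 and LL37 + RAPA skin, and skeletal muscle markers are highest in skin without LL37.

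For each called gene, the genes with the most similar profile over the 12 libraries were found by the root mean square (RMS) difference in log2 CPM after each gene's mean was subtracted. Themis2 (0.43), Smox (0.43) and Stx11 (0.45) were nearest to Tnf. Csf3r (0.35), the receptor for granulocyte colony-stimulating factor and one of the neutrophil markers, Spp1 (0.39) and Timp1 (0.44) were nearest to Tnfsf14. Mirt1 (0.59), Gm16685 (0.61) and Ccno (0.62) were nearest to Tnfsf11. Slc11a1 (0.22), a metal transporter of phagocytes, Pdpn (0.25) and Gch1 (0.26) were nearest to Tnfrsf1b, the smallest differences of the 4. The SD of log2 CPM over the 12 libraries was 1.26 for Tnf, 2.44 for Tnfsf14, 1.68 for Tnfsf11 and 1.08 for Tnfrsf1b. The RMS differences are therefore not on a common scale between the 4 genes. The 12 points of each profile fall into 4 groups, and a similar profile may rest on the difference between groups alone.

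Of 14 other ligands of the superfamily, 10 were tested, and 4 were called higher and 0 lower in LL37 vs control. The shares of all genes were 8.73% and 10.8%. Ltb, which forms lymphotoxin heterotrimers that bind Ltbr, rose by 2.90 on the log2 scale (adjusted p 0.00062), with 17.3 ± 9.86 CPM in LL37 skin against 2.30 ± 0.68 in control skin. It was 9.45 ± 4.41 CPM in LL37 + RAPA skin and was called higher there than in control skin, by 2.04 (adjusted p 0.0137). Tnfsf9 (4-1BB ligand) rose by 2.69 (adjusted p 0.0039), Tnfsf8 (CD30 ligand) by 2.07 (adjusted p 0.0149) and Tnfsf18 (GITR ligand) by 1.85 (adjusted p 0.0158). Tnfsf14 and Ltb, the ligands of Ltbr, were thus both called in the comparison of LL37 + RAPA skin with control skin. Of these ligands 1, Tnfsf8, was also called higher than in LL37 + RAPA skin (1.76, adjusted p 0.0413), where 4.33% of all genes were. That call held in 3 of the 12 fits that left out 1 library. Over these fits the adjusted p reached 0.117, without LL37 replicate 1. The call was also lost when only the groups compared were fitted (adjusted p 0.105). Tnfsf9 (1.60) was not called in that comparison by edgeR with all libraries. It was called with DESeq2 (adjusted p 0.0226), with at least 1 count in total (adjusted p 0.032) and with only the groups compared (adjusted p 0.0434). Omitting control + RAPA replicate 1 gave a Tnfsf9 call as well (adjusted p 0.0168). Without LL37 replicate 3, 3 of the ligands were called higher and 1 lower in that comparison. In LL37 vs control, Tnfsf8 lost its call without control replicate 1 (adjusted p 0.0588) and Tnfsf18 without control replicate 1 (adjusted p 0.0558) or 3 (adjusted p 0.0573). The median log2 fold change of the 10 ligands in LL37 vs control was 0.11. Tnfsf4, Cd40lg, Fasl and Cd70 had too few counts to be tested.

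Of 22 other receptors, 21 were tested, and in LL37 vs control 8 were called higher and 2 lower, with a median log2 fold change of 0.89. The shares of all genes were 8.73% and 10.8%. Tnfrsf9 (4-1BB), a costimulatory receptor of lymphocytes that binds Tnfsf9, rose from 0.60 ± 0.32 CPM to 7.96 ± 1.31, a log2 fold change of 3.72 (adjusted p 0.000107), and was 2.20 higher than in LL37 + RAPA skin (adjusted p 0.00442). Cd40, the costimulatory receptor of antigen-presenting cells, rose by 2.53 (adjusted p 0.00212), Ngfr, the low-affinity neurotrophin receptor, by 1.86 (adjusted p 0.000342), Tnfrsf13b (TACI) by 1.96 (adjusted p 0.00102) and Tnfrsf8 (CD30) by 1.69 (adjusted p 0.0254). Tnfrsf8 lost its call without control replicate 1 (adjusted p 0.0901), control replicate 3 (adjusted p 0.0908) or LL37 replicate 1 (adjusted p 0.0813).

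Tnfrsf23 (1.84, adjusted p 6.5e-06), Tnfrsf22 (1.3, adjusted p 0.000207) and Tnfrsf26 (3.22, adjusted p 0.000759), mouse decoy or orphan receptors, also rose. These 3 genes are neighbouring paralogs on chromosome 7, so the division of reads between them is uncertain. Both receptors of ectodysplasins fell. Eda2r fell by 2.90 on the log2 scale (adjusted p 3.89e-05), from 27.4 ± 8.53 to 3.60 ± 1.76 CPM. It stood at 27.5 ± 1.12 CPM in control + RAPA skin and 10.3 ± 1.2 in LL37 + RAPA skin. The sums of skeletal muscle markers given above were also lowest in LL37 skin and next lowest in LL37 + RAPA skin. The part of the tissue taken in the fall of Eda2r was not tested. Edar, which guides hair follicle formation, fell by 1.82 (adjusted p 0.0244), from 1.74 ± 1.16 to 0.48 ± 0.29 CPM. The Edar call was lost without control replicate 2 (-1.13, adjusted p 0.133), LL37 replicate 1 (-1.67, adjusted p 0.0811) or LL37 replicate 2 (-1.5, adjusted p 0.0877).

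Against LL37 + RAPA skin 4 of these receptors were higher in LL37 skin, Tnfrsf23 (1.27, adjusted p 0.00102), Tnfrsf9, Tnfrsf26 (1.90, adjusted p 0.0177) and Cd40 (1.67, adjusted p 0.0276), and Eda2r (-1.49, adjusted p 0.00678) and Edar (-2.20, adjusted p 0.0176) were lower. In that comparison 4.33% of all genes were called higher and 5.80% lower. In fits that left out 1 library, Tnfrsf23, Tnfrsf9 and Eda2r kept these calls in 12 of 12, Edar in 9, and Tnfrsf26 and Cd40 in 8. The Edar and Tnfrsf26 calls were lost without LL37 replicate 1, LL37 replicate 2 or LL37 + RAPA replicate 1, and the Tnfrsf26 call also without LL37 + RAPA replicate 3, with an adjusted p of up to 0.0743 and 0.0677. Cd40 lost its call without LL37 replicate 1 (1.07, adjusted p 0.146) or without any 1 of the LL37 + RAPA libraries (adjusted p 0.0541 to 0.104). In LL37 vs control Cd40 was at 3.23 without control replicate 3 and at 1.92 without LL37 replicate 1. Ngfr (0.41, adjusted p 0.281) and Tnfrsf13b (0.25, adjusted p 0.6) did not pass the test between LL37 and LL37 + RAPA skin, and both were called higher in LL37 + RAPA than in control skin, by 1.45 (adjusted p 0.00446) and 1.71 (adjusted p 0.00681).

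**Figure D5:**
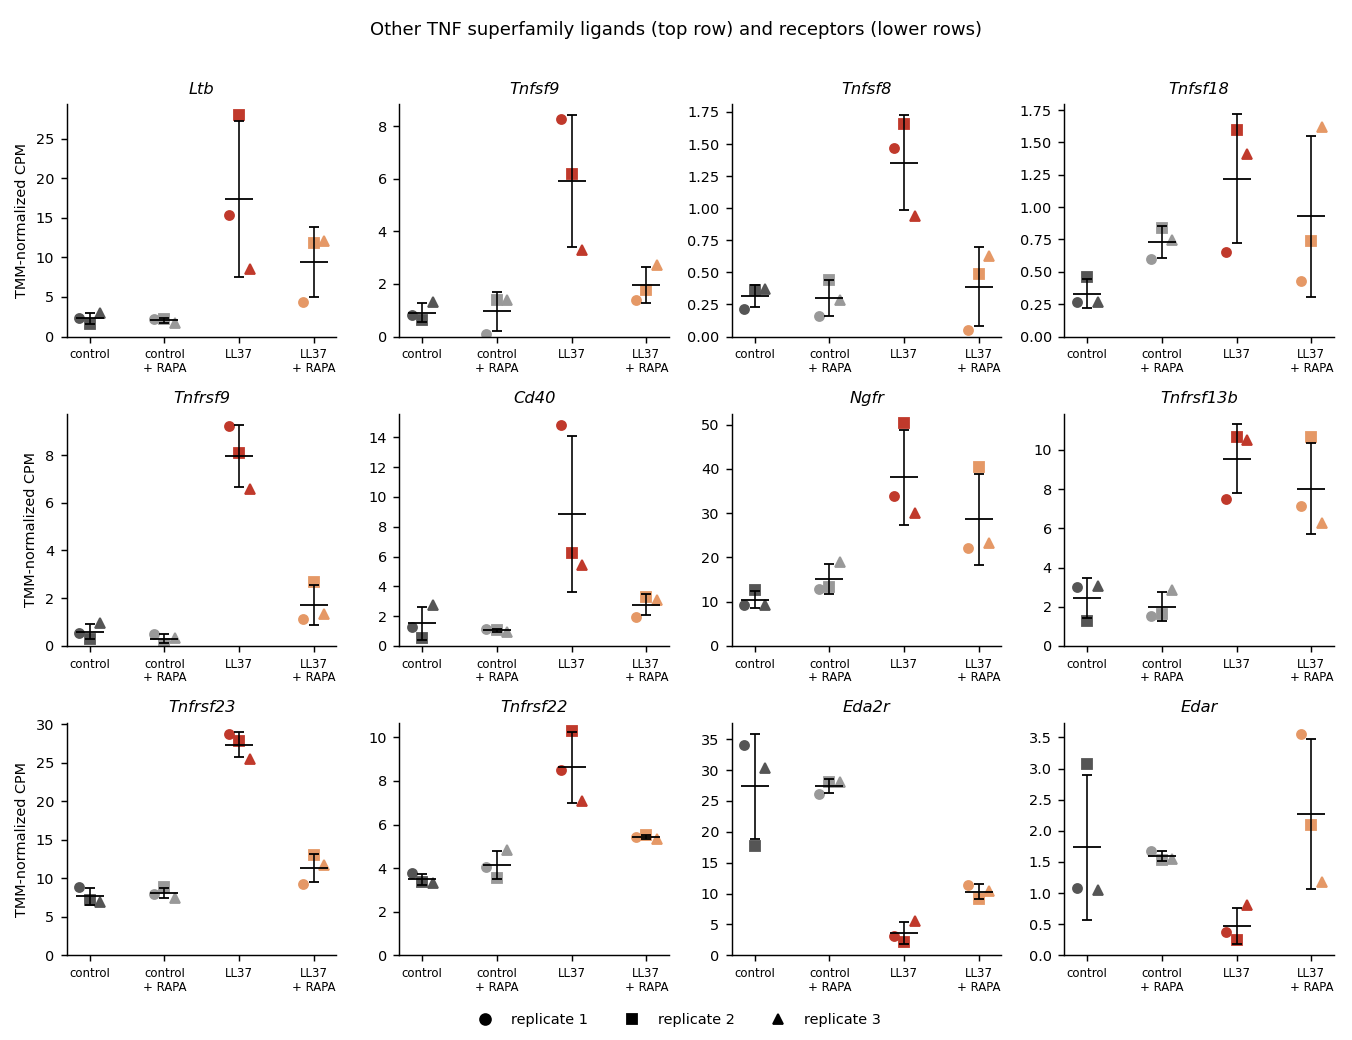
Level of 4 other ligands (top row) and 8 other receptors (lower rows) of the TNF families (vertical axis, TMM-normalized CPM on a linear scale from 0) by group, with 1 symbol per library and a horizontal line for the mean with an error bar for the SD over 3 libraries. Tnfrsf9, Cd40 and Tnfrsf23 are highest in LL37 skin, Ltb, Ngfr and Tnfrsf13b are raised in LL37 and LL37 + RAPA skin, and Eda2r is lowest in LL37 skin.

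Of 30 adaptors, ubiquitin ligases, kinases and caspase regulators that act next to the receptors, 4 were called higher in LL37 vs control and 1 lower, with a median log2 fold change of 0.22. Among all genes tested 8.73% were called higher and 10.8% lower, and 4 and 1 of 30 are not far from these shares. Casp8, the apical caspase of death receptors, rose by 1.17 (adjusted p 1.38e-05). Birc3 (1.33, adjusted p 0.00172), Traf1 (1.43, adjusted p 0.00192) and Tnfaip3 (1.54, adjusted p 0.00932) rose as well, genes that are induced by NF-κB and restrain or tune the signal, and Sqstm1, a scaffold and autophagy adaptor, fell by 1.20 (adjusted p 0.000193). The names of Birc3, Traf1 and Tnfaip3 are given after their values were seen, to complete the count. Cflar, the inhibitor of Casp8, gave 0.79 (adjusted p 0.000371), under the fold limit. Against LL37 + RAPA skin 2 were called higher, where 4.33% of all genes were, Traf1 (1.03, adjusted p 0.0217) and Tnfaip3 (1.21, adjusted p 0.0446). The count of 2 was 0 without LL37 replicate 1, LL37 replicate 2 or LL37 + RAPA replicate 1, 3 without LL37 replicate 3, and 1 in most other fits that left out a library. Casp8 gave 0.42 (adjusted p 0.0163), Cflar 0.56 (adjusted p 0.00728) and Rnf31, a subunit of the linear ubiquitin ligase, 0.59 (adjusted p 0.0118), each under the fold limit.

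Of 5 genes for the release of TNF family proteins from the cell surface, none was called higher and 1 lower in LL37 vs control. The shares of all genes were 8.73% and 10.8%. The gene called lower was Timp3, which inhibits the TNF-converting enzyme Adam17. It fell by 1.21 on the log2 scale (adjusted p 0.0013), and LL37 vs LL37 + RAPA gave -1.35 (adjusted p 0.00287). Adam17 gave 0.76 (adjusted p 0.00147) in LL37 vs control and 0.61 (adjusted p 0.0122) in LL37 vs LL37 + RAPA, and Adam10 gave 0.74 (adjusted p 0.000111) in LL37 vs control. Rhbdf1, a carrier of Adam17, gave -0.77 in both (adjusted p 0.000915 and 0.00338). Of 6 genes that destabilise Tnf mRNA, Zc3h12a (regnase-1) was called higher in LL37 vs control, by 1.72 (adjusted p 0.00035). Zfp36, which encodes the AU-rich element binding protein tristetraprolin, gave 0.75 (adjusted p 0.11) and Zfp36l2 gave 0.49 (adjusted p 0.0689). Against LL37 + RAPA skin 0 of the 6 were called by edgeR or DESeq2, with Zc3h12a at 0.90 (adjusted p 0.0248; 1.14 without LL37 replicate 3 and 1.21 without LL37 + RAPA replicate 3, both called), Zfp36 at 0.48 (adjusted p 0.336) and Rc3h2 at 0.13 (adjusted p 0.429).

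Genes known to be induced by TNF, which other cytokines and bacterial products also induce, were mostly higher with LL37. Of 20 such genes 19 were tested, and 15 were called higher and 0 lower in LL37 vs control, with a median log2 fold change of 2.44. The shares of all genes were 8.73% and 10.8%. Ier3, an early response gene, rose by 2.44 (adjusted p 2.14e-05), Bcl3, an atypical inhibitor of NF-κB proteins, by 2.92 (adjusted p 0.000263), and the neutrophil chemokine Cxcl1 by 4.54 (adjusted p 0.000593). Against LL37 + RAPA skin 9 were called higher, where 4.33% of all genes were, with a median of 1.09, and Ier3 (1.65, adjusted p 0.00166), Cxcl1 (2.65, adjusted p 0.015) and Il6 (3.38, adjusted p 0.0151) had the smallest p. That count was 1 when LL37 replicate 1 or LL37 + RAPA replicate 1 was left out, 2 when LL37 + RAPA replicate 3 was and 4 when LL37 replicate 2 was. It was also 1 when only the 6 libraries compared were fitted. Of the 3 named genes, Ier3 kept its call in 12 of the 12 fits that left out 1 library, and Cxcl1 and Il6 in 9, both losing it without LL37 replicate 1, LL37 + RAPA replicate 1 or LL37 + RAPA replicate 3, with an adjusted p of up to 0.0648 and 0.0696. Bcl3 (1.51, adjusted p 0.0188) was called in 9 as well. Compared with control skin, LL37 + RAPA skin had 7 of the 19 called higher, where 2.15% of all genes were, with a median of 1.02. The lists of family members, signalling, release, mRNA decay and induced genes are described by their counts beside the shares of all genes above, and no test of a list was made.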

How the data were processed

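The deposited table holds raw read counts per gene, made by the authors, for 12 mouse skin libraries (TruSeq kit, paired reads of 100 bases by the study's methods). The methods name HTSeq v0.6.0 as the counter, whereas the submitters' processing notes list HISAT2 2.0.5, StringTie 1.3.3b and featureCounts 1.5.0-p3 with mm10, so the counter is unsettled. The annotation release and the use of strand are not given in the sources used here. Groups were taken from the treatment labels. The study describes the 3 libraries of a group as independent biological samples.

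Counts were fitted with edgeR 4.0.16 (R 4.3.3) across all 12 libraries, with TMM normalization, filterByExpr by group and the quasi-likelihood F-test, and p-values were adjusted by Benjamini-Hochberg over 17993 genes. A gene was called at an adjusted p below 0.05 and an absolute log2 fold change above 1. Intervals are 95% and come from the fit. CPM values are TMM-normalized, and FPKM values divide them by the summed exon length of GENCODE M21 (GRCm38), which gave a symbol to 52489 of 52636 identifiers. A group with 3 counts or fewer in every library was set at 3 counts per library for a fold. Depth was 15734559 to 23271784 counts per library, so 3 counts equal 0.12 to 0.18 CPM. The script was tested on simulated counts.

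The 10 genes, the gene lists and the tests were chosen with earlier results of these data known. Genes outside the 10 were named by rule: other family members called in LL37 vs control or LL37 vs LL37 + RAPA, the 3 smallest p of each further list in these comparisons, and the 3 nearest profiles of each called gene. Libraries of a group differed by more than sampling noise (mean chi-square per gene 12.6 to 63.1). Alternatives were other size factors, other filters, DESeq2 1.42.0, other call rules, pairwise fits, a replicate block and leaving out each library.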

Additional observations from a re-analysis of the deposited data

Results flagged for a closer look

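The effect of LL37 differed with and without RAPA for 2 genes of the lists by the interaction test of edgeR. For Tnfrsf23, a receptor of the TNF family, LL37 raised the level by 1.84 on the log2 scale without RAPA and by 0.49 with RAPA, a difference of 1.35 (adjusted p 0.0198). For Ier3, an early response gene induced by TNF, the changes were 2.44 and 0.36, a difference of 2.09 (adjusted p 0.0198). Reads of Tnfrsf23 may be divided with its paralogs Tnfrsf22 and Tnfrsf26. Both calls were lost without LL37 + RAPA replicate 1 (adjusted p 0.0687 for both) and without control + RAPA replicate 3 (adjusted p 0.0546 for Tnfrsf23 and 0.062 for Ier3), and that of Ier3 also without control replicate 1 (adjusted p 0.0523). Over all genes the interaction was called for 429, which is 2.38% of those tested, and for 2 without LL37 + RAPA replicate 1. Besides the 10 members, the lists held 10, 21, 30, 5, 6 and 19 tested genes. The 2 calls among them are near the share of all genes. None of the 10 genes met this test with all libraries in the fit.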

How the results depend on the processing

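Of 1293 values of the 10 genes under an alternative, 1206 kept their direction and stayed called or not called as before. Another 6 lost a call and 25 gained one. The other 56 changed sign, and none of these was a called value. Values of genes that a filter removed are not among the 1293, so calls lost in that way are not in the 6. No fold limit and an unadjusted p reuse the main fit, and could neither change a sign nor lose a call. The share that stayed the same is therefore no measure of stability. A call needs both the adjusted p and the fold limit, so the 1206 include values that crossed the adjusted p threshold alone. Among them were Tnfrsf11b and Ltbr in LL37 vs control and Tnfrsf11a in LL37 vs LL37 + RAPA. For the genes called in LL37 vs control, 4 became 2 with a filter of at least 10 counts in every library, which removed Tnfsf14 and Tnfsf11, and 8 with no limit on the fold change. When only the groups compared were fitted, Tnfsf11 was not among the genes tested in LL37 vs control and 3 were called there, and in LL37 vs LL37 + RAPA 1 was. Leaving out 1 library gave 0 to 4 in LL37 vs LL37 + RAPA, 1 to 2 in LL37 + RAPA vs control + RAPA and 0 to 2 for the interaction. The 1 called in LL37 + RAPA vs control became 0 with at least 10 counts and 2 with no fold limit or an unadjusted p. The 1 in LL37 + RAPA vs control + RAPA became 3 by library size only, 0 with at least 10 counts, and 2 each with at least 1 count in total, with DESeq2, with no fold limit, with an unadjusted p and with only the groups compared. The cause was not tested where none is named.

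Signs changed only for values near 0 or wide in error. With 1 library left out, Tnfsf12 ran from -0.011 to 0.55 in LL37 vs control, -0.40 to 0.16 in LL37 vs LL37 + RAPA, -0.38 to 0.31 in control + RAPA vs control and -0.40 to 0.28 for the interaction. Tnf ran from -0.39 to 0.84 in LL37 + RAPA vs control and from -0.98 to 0.25 in control + RAPA vs control, Tnfrsf12a from -0.087 to 0.044 in LL37 + RAPA vs control, and Zfp36l2 from -0.10 to 0.13 in LL37 vs LL37 + RAPA. Tnfrsf11b ran from -0.25 to 0.29 in LL37 vs LL37 + RAPA and from -0.18 to 0.30 in LL37 + RAPA vs control + RAPA. The interaction ran from -0.43 to 0.90 for Tnfsf14 and from -0.090 to 0.12 for Tnfrsf11a. By library size only, Tnfrsf11b was at -0.029 in LL37 vs LL37 + RAPA and 0.17 in LL37 + RAPA vs control + RAPA, Tnf at 0.067 and Tnfrsf12a at 0.11 in LL37 + RAPA vs control, Tnfrsf12a at 0.010 in LL37 + RAPA vs control + RAPA, and the interaction at -0.012 for Tnfsf12 and -0.091 for Tnfrsf11a. With at least 1 count in total, Tnfrsf11b was at -0.0024 in LL37 vs LL37 + RAPA and 0.026 in LL37 + RAPA vs control + RAPA, and the interaction for Tnfrsf11a at -0.031. Tnfrsf11b in LL37 + RAPA vs control + RAPA was at 0.0035 with the muscle list removed, 0.013 with at least 10 counts, 0.0013 with DESeq2 and 0.020 with only the groups compared. The interaction for Tnfrsf11a was at -0.014 with the muscle list removed and -0.012 with at least 10 counts.

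Replicate numbers are shared by the groups. Over 18 pairs of same-numbered libraries the correlations of deviations ran from -0.19 to 0.26, with 4 over 0.1. Pairs with different numbers were not compared, so these values do not show whether same-numbered libraries deviated together. With the replicate number as a block the 6 comparisons called 4, 2, 1, 0, 1 and 0 of the 10 genes, the same numbers as without it, while the block gave 199 interaction calls over all genes against 429 and 5 against 9 TNF-induced genes in LL37 vs LL37 + RAPA. Under the block Tnfrsf11b was at -0.023 in LL37 vs LL37 + RAPA and 0.031 in LL37 + RAPA vs control + RAPA, Tnf at 0.027 in LL37 + RAPA vs control, and the interaction for Tnfsf12 at -0.068. Over all genes, DESeq2 gave 1012 interaction calls, at least 1 count in total 822, and at least 10 counts 743 calls against 1168 in LL37 + RAPA vs control. Library size only moved the median of all genes by 0.13 in LL37 + RAPA vs control and 0.19 in LL37 + RAPA vs control + RAPA, and the share of higher genes among calls from 33.0% to 44.6% and from 48.5% to 62.7%.

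With 3 libraries per group the intervals of Tnf, Tnfsf14 and Tnfsf11 are wide, and a difference of the size of the fold limit was not detectable for them. Counts of Tnfsf11 and Tnfsf14 in skin without LL37 were at or near the limit of detection. The labels do not say whether each library came from its own animal, so p-values measure the spread between these samples.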
